A study of Mus musculus with 6 samples.

Results

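The piRNA gene 9-qF4-150 is 1 of 214 piRNA genes with reads in these small RNA libraries, and 1 short sequence gives most of what was counted on it. Its members were found by name: all lines placed on a cluster transcript of 9-qF4-150 were taken, and a sequence was kept when every place it had lay in this gene. The copies of each kept sequence were counted once per library. This left 69 distinct sequences with 546 reads, on 2 transcripts of the gene. The gene and its leading sequence were chosen with their lower counts after irradiation known, so the sizes of these falls are given as a description with no test.

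The libraries came from purified male primordial germ cells of mouse, taken from embryos at stage E13.5. Per the labels, 3 libraries came from cells treated with ionizing radiation (IR) and 3 from untreated controls, and no strain, dose or time after exposure is given there. Whether the replicates were separate animals is not in the labels, and a p-value here reflects only library-to-library spread, possibly technical. The files hold only reads on cluster transcripts, between 7788 and 11280 per library, so germ cell markers could not be checked and the depth of the whole libraries is not known from them.

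PIWI-interacting RNAs (piRNAs) are small RNAs that guide PIWI proteins to silence transposons in the germ line. They are cut from long single-stranded precursors, the cluster transcripts, and primary piRNAs tend to begin with U and to be longer than microRNAs. In the fetal male germ line piRNAs are loaded onto PIWI proteins as transposons are silenced anew. Small RNA libraries also hold microRNAs and fragments of structured or repeat-derived RNAs, and a read on a cluster transcript need not be a piRNA.

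The sequences that make up the signal are shown first, since the count of the gene turns on them. The main sequence is 21 nt long and lies on the minus strand, opposite to the deposited transcript, at positions 11042 to 11062 of transcript 2. Below it stand the other frequent or informative reads that begin within 3 nt of its 5′ end. Such reads are called the pileup here. Capitals mark bases that differ from the main sequence or lie beyond its 3′ end.
main sequence: cctttaatctcgacacttgga
5′ end 1 nt later: ctttaatctcgacacttgga
5′ end 2 nt later, 3′ end 4 nt further: tttaatctcgacacttggaGGGC
other bases at that 3′ end and inside: tttaatctcgGcacttggaGGGA
1 base changed, A13G: cctttaatctcgGcacttgga
2 bases changed, A6G and A13G: cctttGatctcgGcacttgga
In A13G the main sequence has the first base, the position is counted from 1 at its 5′ end, and the variant read has the last base.

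Reads of 9-qF4-150 numbered 143, 104 and 168 in control libraries against 42, 43 and 46 in IR libraries. All 3 IR libraries were below all 3 control libraries. In such bulk samples fewer cells that make an RNA and less of it per cell cannot be told apart. As a share of the reads of a library on cluster transcripts the gene took 1.42% ± 0.130 in control and 0.448% ± 0.124 in IR (SD, n = 3). The edgeR fit over all piRNA genes gave a log2 fold change of -1.77 (SE 0.24), from 18762 ± 1865 to 5592 ± 1552 CPM (counts scaled to a common library size), where the median of the 103 genes tested was 0.040. Of these 103 genes, 3.88% (4 genes) were called lower in IR at an adjusted p under 0.05, and in 10.7% every IR library was below every control library in CPM. Leaving out control replicate 3 made these 4 genes 10, leaving out control replicate 2 or IR replicate 3 made them 2, and leaving out either other IR library left 1. 9-qF4-150 had the lowest log2 fold change of the 103, and pi-Elk4, at the gene of an ETS family transcription factor, was next at -0.99 (SE 0.31).

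The main sequence had 123, 87 and 150 reads in control libraries against 27, 31 and 37 in IR libraries. It took 1.22% (95% exact binomial interval 1.02 to 1.46), 1.08% (0.868 to 1.33) and 1.39% (1.18 to 1.63) of the reads of control replicates 1 to 3. In IR replicates 1 to 3 the shares were 0.239% (0.158 to 0.348), 0.275% (0.187 to 0.390) and 0.475% (0.335 to 0.654). These intervals cover counting error only. All 3 IR shares were below all 3 control shares, and IR replicate 3 was the highest of the IR libraries. Fitted over 124 sequences its log2 fold change was -1.65 (SE 0.42), or -2.14 without IR replicate 3. It was not the lowest of these sequences, since the lowest value, for another sequence, was -2.80 (SE 0.66). This fit is scaled over sequences and those of the gene and the pileup over piRNA genes, so their values cannot be ranked against each other. With the file total as library size in both, the log2 fold change was -1.91 for the main sequence and -1.69 for the gene. Among these sequences 3.23% (4 sequences) were called lower and 13.7% had every IR library below every control library. The 4 sequences became 12 without IR replicate 3 and 2 without control replicate 3 or IR replicate 1.

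The rank of the main sequence among all sequences of a library was 2, 5 and 1 in control libraries against 34, 26 and 9 in IR libraries. It made up 11.5%, 11.8% and 14.1% of all 21-nt reads in control libraries against 2.45%, 2.65% and 4.21% in IR libraries. All 21-nt reads together were 10.6%, 9.17% and 9.83% of control reads against 9.77%, 10.4% and 11.3% of IR reads, so that the groups overlapped. Without the main sequence the 21-nt share was 9.50%, 8.18% and 8.56% in control against 9.55%, 10.1% and 10.9% in IR.

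**Figure D1:**
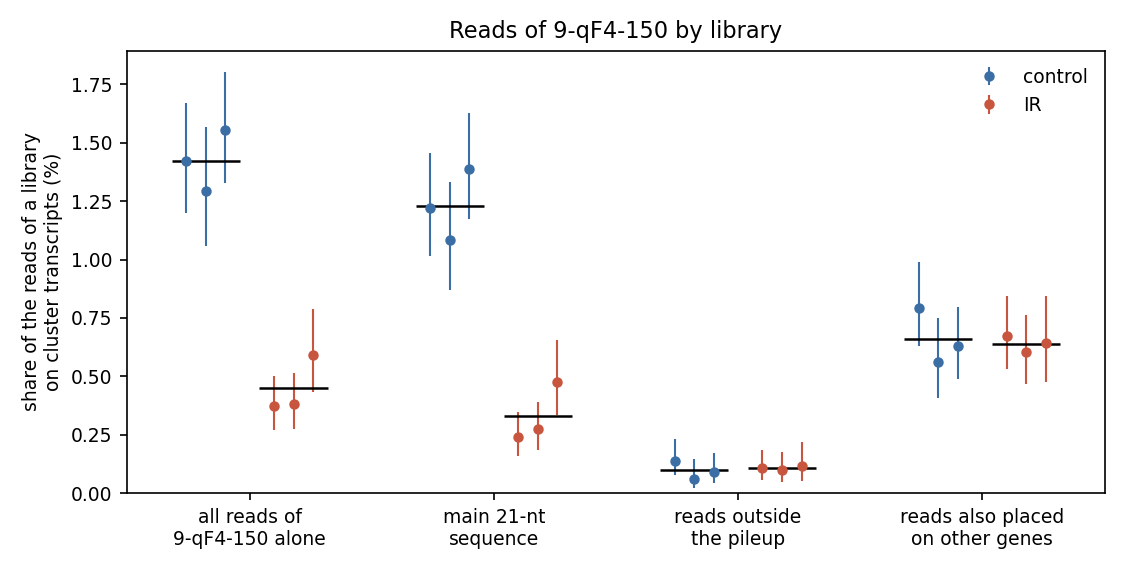
Share of each library's reads on cluster transcripts (%, vertical axis) for 4 kinds of read on 9-qF4-150, with control in blue and IR in red. Points are libraries, bars are exact 95% binomial intervals and black lines are group means: the main sequence lies between 1.08% and 1.39% in control and between 0.239% and 0.475% in IR, whereas reads outside the pileup and reads also placed on other genes overlap between groups.

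Reads of the gene outside the pileup were about as many in both groups. They numbered 14, 5 and 10 in control libraries against 12, 11 and 9 in IR libraries, and the ranges overlapped. With the gene split into pileup and outside reads in the fit over all piRNA genes, the outside reads had a log2 fold change of -0.042 (SE 0.37, 95% interval -0.85 to 0.76, adjusted p = 0.967, edgeR), and the pileup one of -2.12 (SE 0.26). The interval of the outside reads includes falls of up to 0.85 on the log2 scale and excludes one of the size seen in the pileup. The sign of the outside value also turned with single libraries, from -0.24 without control replicate 2 to 0.30 without control replicate 1, and with the file total as library size it was 0.085. With the pileup limited to 5′ ends within 1 nt the outside value was -0.30 (SE 0.32).

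The pileup held 129, 99 and 158 reads in control libraries against 30, 32 and 37 in IR libraries. It accounted for 90.2%, 95.2% and 94.0% of the reads of the gene in control and 71.4%, 74.4% and 80.4% in IR. Reads of the pileup other than the main sequence numbered 6, 12 and 8 in control and 3, 1 and 0 in IR. They are few and part of the gene count whose fall was known at the choice, so they were not tested. In IR replicate 3 the whole pileup was the main sequence.

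Among the kept reads of the pileup the 5′ ends were sharply placed in both groups. Of 485 reads, 465 began at the 5′ end of the main sequence, 6 began 1 nt later and 14 began 2 nt later. Of the 485 reads 386 were in control and 99 in IR. The 6 reads that began 1 nt later were all in control, and of the 14 that began 2 nt later 10 were in control and 4 in IR. No read of the pileup began before the main sequence. The share of reads with the main 5′ end was 96.9%, 92.9% and 96.8% in control against 90.0%, 96.9% and 100% under IR (exact permutation p = 0.9, two-sided, adjusted p = 0.9 over 3 measures).

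At the 3′ end 469 reads stopped where the main sequence stops, 8 ended 4 nt further and 8 ended 1 to 3 nt further. The form with the main 5′ end that stops 1 nt earlier was not kept, since it also had places on other genes. It had 20 control and 5 IR reads, more than these longer forms together. The 3′ ends, lengths and main share of the pileup given here therefore depend in part on the rule for keeping sequences. Deposited reads also had at least 20 nt, so a read with the main 5′ end could stop at most 1 nt early. That the mean 3′ end below lies beyond the main one is in part set by these limits. Reads that ended 4 nt further numbered 7 in control and 1 in IR. The mean 3′ end lay 0.105 nt ± 0.0847 beyond that of the main sequence in control against 0.119 nt ± 0.117 in IR (SD, n = 3; exact permutation p = 0.9, adjusted p = 0.9). The 14 reads that began 2 nt later could only end at least 1 nt past the main 3′ end, given the least length of 20 nt. The main sequence was 92.7% ± 4.20 of the pileup in control against 95.6% ± 5.12 in IR (exact permutation p = 0.5, adjusted p = 0.9). The smallest p these tests can give with 3 against 3 libraries is 0.1, so none could reach 0.05, and the pileup of an IR library rests on 30 to 37 reads.

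Some reads had the exact ends of the main sequence and other bases inside. There were 4 such sequences with 9 reads, all 9 in the control libraries. The change A13G was in 8 of the 9 reads, G12C in 2 and A6G in 2. The form with A13G alone had 2, 3 and 0 control reads. The main sequence itself had 360 control and 95 IR reads, and the absence of such variant reads in IR was not tested. Which of the bases stands in the cluster transcript is not given in the files, since reads that differ at a base were placed at the same position.

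**Figure D2:**
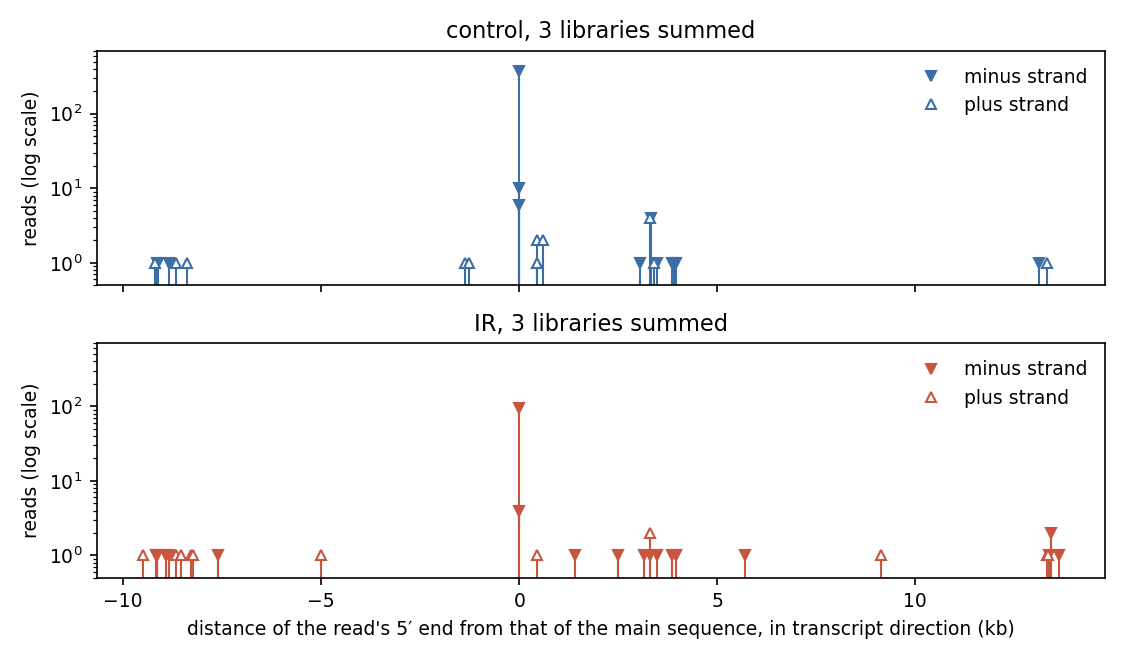
Reads of 9-qF4-150 by the distance of their 5′ end from that of the main sequence along the transcript (kb, horizontal axis), on a log scale of reads, for the 3 control and the 3 IR libraries summed. Filled triangles are minus-strand and open triangles plus-strand 5′ ends: the peak at 0 holds 370 reads in control and 95 in IR, and places outside the pileup hold between 1 and 4 reads.

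The remaining reads were spread over the transcript. Outside the pileup 61 reads came from 55 sequences, of which 51 were seen once and 0 were found in both groups. They lay between positions 1563 and 24687. Positions 1 to 5000 held 6 control and 12 IR reads, 5001 to 10000 held 2 and 1, 10001 to 15000 held 19 and 11, 15001 to 20000 held 0 and 1, and 20001 to 25000 held 2 and 7. Transcript 1 has no read beyond position 2931, so that the pileup and most outside reads were placed on transcript 2 alone.

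Both strands were present among the outside reads, in contrast to the pileup, which is defined on 1 strand. On the minus strand there were 7, 2 and 4 control and 9, 4 and 7 IR reads. On the plus strand there were 7, 3 and 6 control and 3, 7 and 2 IR reads. The groups overlapped on each strand. The most frequent outside sequence had 4 reads, 3 in control replicate 1 and 1 in control replicate 2, at positions 14373 to 14393 on the minus strand.

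The kept pileup reads had 20 to 23 nt and 468 of 485 had 21 nt, so 0 had the 24 to 32 nt taken here as the size of piRNAs. Of the outside reads, which ran from 20 to 48 nt, 17 of 29 in control and 13 of 32 in IR had the 20 to 23 nt of the pileup, and 9 and 11 had 24 to 32 nt. Outside reads that began with T, the base read for U, numbered 6 in control and 10 in IR. The main sequence begins with C, not with the U that primary piRNAs favour.

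**Figure D3:**
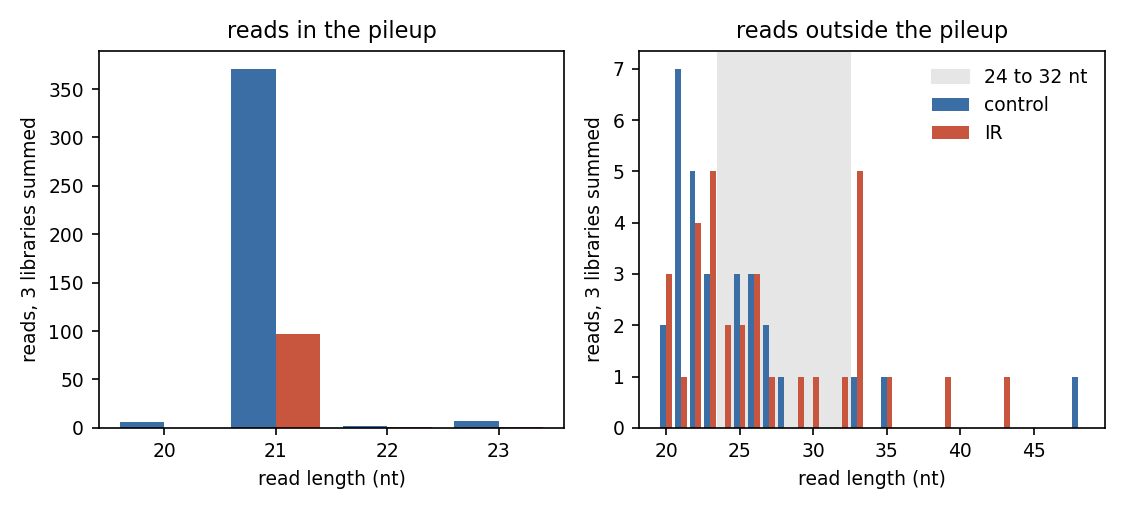
Read lengths (nt) in the pileup and outside it, as reads summed over the 3 control (blue) and the 3 IR (red) libraries, with 24 to 32 nt shaded. The pileup is almost wholly of 21 nt, with 371 control and 97 IR reads, and the outside reads have no length above 7 reads.

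The final base decides where a read of this kind was counted. The main sequence had 1 place among all cluster transcripts, but the same bases without the final A had 9 places in 6 piRNA genes, and with a final G 8 places in the same 6 genes. These are 9-qF4-150, 10-qC1-12816, 5-qG3-23659, pi-Cbfa2t2, pi-Zbtb37 and pi-Zfp652. Within 9-qF4-150 itself the form without the final A lay at the pileup and also on the plus strand near position 2698. The form with a final G lay only at the latter place in this gene. A further form that ends differently was placed on 10-qB4-6488 and not on 9-qF4-150. Capitals below mark bases that differ from the main sequence at the same distance from the 5′ end.
20 nt, 6 genes: cctttaatctcgacacttgg
21 nt, 6 genes: cctttaatctcgacacttggG
20 nt, 10-qB4-6488 only: cctttaatctcgacacttgA
22 nt, 9-qF4-150 only: cctttaatctcgacacttggaG

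These related forms also gave fewer reads in the IR libraries. The 20-nt form shared by 6 genes had 5, 5 and 10 control and 2, 2 and 1 IR reads. The 21-nt form with a final G had 6, 0 and 2 control and 0, 1 and 0 IR reads, and the form of 10-qB4-6488 had 1, 0 and 2 control reads and 0 in IR. The 4 sequences other than the main one that hold its first 15 bases together had 12, 5 and 15 control and 2, 3 and 1 IR reads. That is 0.107% ± 0.0398 of control and 0.0191% ± 0.00698 of IR reads, and no IR library reached the lowest control library (two-sided exact permutation p = 0.1, which is the least attainable, adjusted p = 0.2 over 2 measures). All but 1 of these 38 reads were outside the counts of 9-qF4-150. This measure was chosen after the data were seen, from forms that share 15 bases with a sequence picked for its fall. Its p-value is therefore no separate evidence of a fall, and the IR side rests on 6 reads. Of the 124 sequences fitted, 13.7% had their groups separated in the same direction in CPM.

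Reads placed on 9-qF4-150 and on other piRNA genes, which the counts of the gene leave out, numbered 80, 45 and 68 in control and 76, 68 and 50 in IR. They took 0.661% ± 0.121 and 0.640% ± 0.0355 of the reads (SD, n = 3; exact permutation p = 0.9, adjusted p = 0.9 over 2 measures). In these shared reads 303 distinct sequences made up 387 reads.

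The strand opposite to the main sequence was nearly empty. Plus-strand reads over its place came from 2 sequences with 3 control reads and 1 IR read, each of which also had places on other genes. Their 5′ ends overlapped that of the main sequence by 19 or 20 nt, not by the 10 nt that mark ping-pong pairs of piRNAs, in which a PIWI protein cuts a target opposite its guide.

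No reference RNA held the main sequence. Against the transcripts of GENCODE vM21 aligned without gaps, it had at least 2 mismatches on either strand. In sense, the nearest were Gm44416 and Gm47594. Among the small RNA classes of that annotation the fewest mismatches in sense were 4 for the class misc_RNA, 5 for microRNA genes (Gm24824 and Mir1946a), 5 for scRNA (Bc1-ps1), 6 for small nucleolar, 7 for small nuclear and 7 for ribosomal RNA. In antisense the microRNA gene Gm24365 had 3. Against the mature and hairpin microRNAs of RefSeq (GRCm38.p6) the fewest in sense were 8 and 7. Nuclear tRNA sequences are not in that annotation and were not compared.

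Reads that begin alike but carry the common form of a mouse repeat were also present. As background, the B1 repeat, a short interspersed element of the mouse genome, holds a stretch that begins with the same bases. Over all reads of the 6 libraries, 17 distinct stretches of 21 bases began with the first 9 bases of the main sequence, 502 copies in all, of which 456 had its exact bases. The next were the form with the final G, at 9 copies, and these forms, at 7 copies each.
4 bases changed: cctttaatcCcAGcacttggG
5 bases changed: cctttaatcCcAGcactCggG
Their changes from the main sequence are T10C, G12A, A13G and A21G, with T18C also in the latter.

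**Figure D4:**
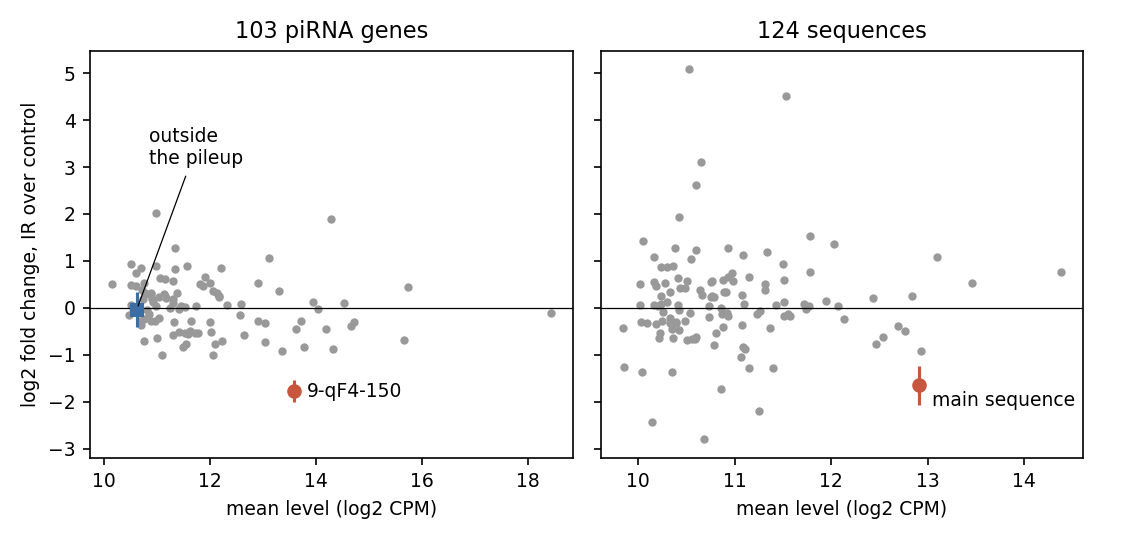
Log2 fold change of IR over control (vertical axis) against mean level (log2 CPM, horizontal axis), for 103 piRNA genes and 124 sequences, with standard errors on the marked points. 9-qF4-150 at -1.77 is the lowest gene, its reads outside the pileup (blue square, fitted with the gene split) lie at -0.042, and the main sequence lies at -1.65 among the more abundant sequences. Genes and sequences were fitted and scaled separately.

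The piRNA genes whose profile over the 6 libraries was nearest to that of 9-qF4-150 were 15-qD1-4001, 9-qC-10667 and pi-Phf20. Likeness was the root mean square difference of centred log2 CPM, which was 0.50, 0.52 and 0.53. Their log2 fold changes were -0.92, -0.87 and -0.82. Genes picked by likeness to this profile share its fall through that choice, and 9-qF4-150 had the lowest value of all genes tested, so these values are a description. 15-qD1-4001 had 87, 82 and 129 control and 70, 61 and 43 IR reads.

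The weight of 1 sequence was greater in 9-qF4-150 than in any other of the 63 piRNA genes with at least 100 reads. Its main sequence gave 83.3% of its reads over the 6 libraries, and the median over these genes was 5.93%. In 9-qC-10667 the leading sequence, of 22 nt, gave 49.7%. It was next in that order, and 9-qA5.3-24188 and 14-qA3-2286, named here after their values were seen, both stood at 48.9% with leading sequences of 22 and 20 nt. The share in 9-qF4-150 was 86.0%, 83.7% and 89.3% in control against 64.3%, 72.1% and 80.4% in IR. The dominance of this sequence was known when the gene was chosen, and is not tested.

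**Figure D5:**
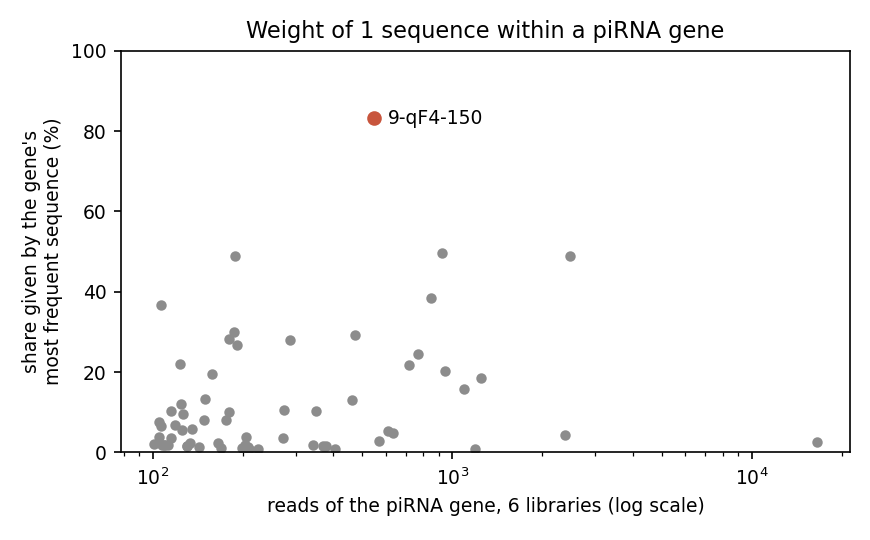
Share of a piRNA gene's reads given by its most frequent sequence (%, vertical axis) against the reads of the gene over the 6 libraries (log scale), for the 63 genes with at least 100 reads. 9-qF4-150 stands at 83.3% with 546 reads, and every other gene is below 50%.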

How the data were processed

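The members, lists and tests were chosen with earlier results of these data known. Small RNA of male mouse primordial germ cells was size-selected at 18 to 50 bp and made into libraries with the NEBNext kit, per the labels' protocols. The deposited values are raw counts of copies per read sequence with the number of mapped places. The build was mm10, per the submitters' processing notes. For aligner, trimming and allowed mismatches: not given in the sources used here. Deposited reads had 20 to 85 nt. Positions are on cluster transcripts, counted from 1. No genome sequence was used, so no chromosome coordinates are given.

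Counts per piRNA gene and per sequence were fitted in edgeR 4.0.16 (R 4.3.3, limma 3.58.1) by its quasi-likelihood test, after TMM and filterByExpr, with Benjamini-Hochberg adjusted p-values. SE was derived from the log2 fold change and its F statistic. CPM uses the effective library size. The fits were tested on simulated counts. Shares were compared by exact two-sided permutation of the 6 libraries. DESeq2 1.42.0, no filter, the file total, a replicate block, other read rules and leaving out each library were the alternatives. Named were the main sequence, sequences of the gene with 5 or more reads, the 3 nearest gene profiles and the neighbours in fold change; other pileup forms, related forms and the leading outside sequence were named after their values were seen. Within groups, chi-square tests over piRNA genes told every pair of libraries apart (largest p = 1.08e-08). Other software was scipy 1.17.1, pandas 2.3.3, numpy 2.4.6 and matplotlib 3.10.9 under Python 3.11.15.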

Additional observations from a re-analysis of the deposited data

How the results depend on the processing

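The log2 fold change of 9-qF4-150 stayed between -2.05 and -1.55 over 12 alternatives, and that of the main sequence between -2.14 and -1.40 over 11. On the plus strand alone the gene had too few reads to be fitted. Leaving out 1 library gave -2.05 to -1.65 for the gene, -2.14 to -1.40 for the main sequence and -0.24 to 0.30 for the outside reads, which stood at 0.085 with the file total as library size. It gave differences (IR minus control) of 0.482 to 5.72 percentage points in the share of the main sequence, -2.12 to 2.88 points in the share with the main 5′ end and -0.043 to 0.074 nt in the mean 3′ end. With each distinct sequence counted once per library the 2 shares differed by 46.1 and 14.4 points (exact permutation p = 0.1, the least attainable, and p = 0.9). Counted so, the main share is 1 over the number of distinct pileup sequences, which tends to be lower where fewer pileup reads were counted. The 46.1 points are therefore no separate evidence of a change in composition. The pileup held 14 distinct sequences in control and 4 in IR. The number of piRNA genes called, 8 of 103 tested, was 5 of 56 with reads of 1 mapped place. Without 1 library it was 3 to 15, of 112 to 117 tested: 4 and 15 without control replicates 2 and 3, and 3, 3 and 5 without IR replicates 1, 2 and 3. With DESeq2 2 were higher and 7 lower, in place of 4 and 4. Lower were 7 of 214 without a filter, 8 of 122 with all reads divided by mapped places and 1 of 56 with reads of 1 mapped place. The number of sequences called, 10 of 124 tested, was 23 of 109 when summed by their first 15 bases (12 lower). Without 1 library it was 4 to 21, of 142 to 159 tested: 16 and 4 without control replicates 1 and 3, and 21 without IR replicate 3. With the file total 4 were higher and 5 lower, in place of 6 and 4. The outside reads stood at -0.30 with the pileup limited to 5′ ends within 1 nt. With the replicate block the log2 fold changes were -1.77, -1.69 and -0.0034 for the gene, the main sequence and the outside reads. Deviations of equally numbered libraries correlated at -0.17, 0.11 and 0.12 over piRNA genes. With 3 libraries per group these values cannot decide whether the numbers pair the libraries. The replicate block gave 7 genes called in place of 8 and left the 10 sequences at 10. It took the SE of the gene from 0.24 to 0.17 and that of the outside reads from 0.37 to 0.35, and left that of the main sequence at 0.42. The causes of these changes were not tested. Counts of 5 to 14 outside reads per library limit what could be seen there.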
